A study of Sus scrofa with 34 samples.

Results

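The genes described here are PRR15, UCHL5, PON3, NCAN, OSTC and USP2, 6 of the 25880 genes counted in the ileum and liver of weaned piglets. They were picked because their ileum counts differed consistently, and mostly by less than 2-fold, between piglets fed a phytogenic feed additive (PFA) and control piglets. The ileum comparison of these 6 genes is therefore a description without a test. The tests below are those of the liver, of the 2 tissues against each other, and of the relation between the tissues over pigs. None of these comparisons chose the genes. The last 2 reuse ileum libraries from which the genes were picked, so they are not independent of the choice. Liver comparisons that involve control or PFA pigs include the animals and pens of those ilea, so they are not fully independent either.

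Poly(A) RNA of whole tissue pieces was sequenced from crossbred piglets fed 1 of 4 diets and labelled day 28: a control diet, the control diet with PFA, a diet with oxidized rapeseed oil (OO), and a diet with both (OO + PFA). PFA was a blend built on oregano and caraway oils with carvacrol, methyl salicylate and menthol. The diets with oxidized oil held more rapeseed oil and more calculated energy than those without it. Oxidation, oil amount and energy are therefore inseparable in the oil comparisons. The ileum was sequenced in 5 control and 5 PFA pigs, and the liver in 6 pigs per diet, among them all 10 ileum pigs. The pigs of a diet shared 1 pen, which makes pen and diet inseparable, and 1 OO + PFA liver that the study left out for its RNA quality was left out here, which leaves 23 livers. Pigs are named by diet (C, P, OO, OP) and number.

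Levels are given as CPM, the read pairs counted on a gene scaled to the same number of counted pairs in each library, with library sizes adjusted by the TMM method. Between 18738055 and 42446834 read pairs were counted on genes per library. The tissues carried their markers: 8 epithelial genes summed to at least 8706 CPM in every ileum, and 7 hepatocyte genes to at least 81041 CPM in every fitted liver. Summed CPM of all 12 lists of cell type markers overlapped between control and PFA ilea. The livers carried 2 forms of library title, PigLiv (14 livers) and PL (9 livers), whose meaning the labels do not give. In these tissue pieces, a change in the number of cells of a type and a change in RNA per cell cannot be told apart.

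The 6 genes come from unrelated pathways. UCHL5 and USP2 are deubiquitinases, enzymes that take ubiquitin off other proteins. UCHL5 works on the cap of the proteasome and in the INO80 chromatin remodelling complex, and USP2 acts on proteins such as MDM2 and cyclin D1 and is known as an output gene of the circadian clock. OSTC is a subunit of the oligosaccharyltransferase, which attaches N-glycans to proteins as they enter the endoplasmic reticulum. PON3 is a lactonase of the paraoxonase family, made mainly in liver and carried by high-density lipoprotein. NCAN (neurocan) is a proteoglycan of the brain matrix, and PRR15 is a proline-rich protein known from gut epithelium and trophoblast.

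All 6 genes have a place on the pig genome Sscrofa11.1, given here from the RefSeq annotation of that build, and no other annotated gene overlaps them. PRR15 (ENSSSCG00000016686) lies at chr18:43181283-43184932 on the minus strand and has 2 exons. UCHL5 (ENSSSCG00000010802) lies at chr10:725688-761633 on the plus strand with 12 exons. OSTC (ENSSSCG00000009145) lies at chr8:113435983-113447196 on the minus strand with 4 exons. NCAN (ENSSSCG00000032131) lies at chr2:58638808-58669757 on the minus strand, and its nearest neighbour at 4347 bases is HAPLN4, which codes for a link protein of the same matrix. PON3 (ENSSSCG00000029515) lies at chr9:74983040-75017947 on the minus strand between its relatives PON1, at 8320 bases, and PON2, at 9323 bases. USP2 (ENSSSCG00000015120) lies on the same chromosome at chr9:46563469-46590392 on the minus strand, with 9 annotated start sites.

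The stretch before the most upstream USP2 start is shown because the liver level of USP2 is compared with clock genes below. It covers the 250 bases at chr9:46590393-46590642 (Sscrofa11.1, RefSeq), written 5′ to 3′ on the minus strand, and the capitals mark an E-box, the motif CACGTG that reads the same on both strands and is bound by the clock proteins CLOCK and BMAL1.
USP2 upstream window: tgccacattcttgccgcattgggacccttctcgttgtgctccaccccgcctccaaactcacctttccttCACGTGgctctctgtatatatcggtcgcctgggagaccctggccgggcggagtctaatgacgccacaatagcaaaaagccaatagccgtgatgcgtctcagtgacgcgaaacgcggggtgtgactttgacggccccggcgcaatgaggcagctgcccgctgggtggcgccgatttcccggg
The E-box begins 181 bases before the start and lies in the windows of 3 of the 9 USP2 starts, which overlap. The motif CACGTG was found in 6.39% of 19556 such windows of protein-coding genes, and in 3 of the windows of 19 clock genes (PER1, PER3 and TEF). It was in no window of the other 5 genes, and the D-box motif TTATGTAA, searched on both strands and found in 0.706% of all windows, was in none of the 6. The UCHL5 window held 77.2% G and C and 37 CpG pairs, against medians of 57.6% and 12.

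In the ileum, 4 of the 6 genes were higher and 2 were lower in PFA pigs, and for each of them the 2 diets did not overlap. Over all 14300 genes kept by the filter on low counts, 80 did not overlap between the diets (0.559%), 65 higher (0.455%) and 15 lower (0.105%). Since the 6 genes were chosen on this comparison, nothing is read from their count. No gene of the 14300 was called (0%) by edgeR's quasi-likelihood test, where a call needs an adjusted p no higher than 0.05, and 401 had an unadjusted p under 0.05. DESeq2 called 4 of all genes, a count given as background and not as a test of the 6.

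PRR15 was at 33.1 (C-100), 33.1 (C-110), 35.3 (C-71), 35.5 (C-80) and 31.1 CPM (C-92) in control ilea. In PFA ilea it was at 24.03 (P-107), 21.1 (P-134), 22.4 (P-138), 18.6 (P-75) and 18.6 CPM (P-95). All PFA pigs lay below all control pigs, with a gap between 24.03 and 31.1 CPM that was wider than the range within either diet. This was a log2 fold change of -0.68 (standard error 0.11), 1.60-fold lower with PFA.

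USP2 was the other gene that was lower with PFA. Control ilea held 9.88 (C-100), 16.7 (C-110), 12.6 (C-71), 11.4 (C-80) and 9.25 CPM (C-92). PFA ilea held 7.46 (P-107), 5.15 (P-134), 6.75 (P-138), 6.12 (P-75) and 8.86 CPM (P-95). The groups came close, with 8.86 CPM in P-95 and 9.25 CPM in C-92, and C-110 stood highest. On the log2 scale the difference was -0.80 (standard error 0.21), 1.74-fold lower with PFA.

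UCHL5 had the narrowest spread. It was at 70.1 (C-100), 75.1 (C-110), 69.5 (C-71), 69.7 (C-80) and 69.4 CPM (C-92) in control ilea. It was at 89.7 (P-107), 86.5 (P-134), 86.4 (P-138), 83.1 (P-75) and 84.9 CPM (P-95) in PFA ilea. The coefficient of variation was 3.46% in control and 2.81% in PFA pigs, and the log2 fold change of 0.28 (standard error 0.075) was the smallest of the 6.

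OSTC was at 54.5 (C-100), 51.1 (C-110), 50.4 (C-71), 46.1 (C-80) and 56.6 CPM (C-92) in control ilea. It was at 63.1 (P-107), 64.0 (P-134), 77.1 (P-138), 71.9 (P-75) and 63.4 CPM (P-95) in PFA ilea. P-138 and P-75 stood above the other PFA pigs, and the log2 fold change was 0.39 (standard error 0.098), 1.31-fold higher with PFA.

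PON3 went against the description of a small difference. Control ilea held 13, 18, 10, 3 and 18 counts (C-100, C-110, C-71, C-80, C-92), or 0.114 to 0.966 CPM. PFA ilea held 33 (P-107), 41 (P-134), 57 (P-138), 33 (P-75) and 148 counts (P-95), or 1.64 to 6.39 CPM. P-95 stood highest, the next pig being P-138 at 2.98 CPM. PON3 was 4.78-fold higher with PFA (log2 2.26, standard error 0.55), and the log2 value was 1.72 without P-95. Of the 80 genes whose groups did not overlap, 2 differed by at least 2-fold, PON3 among them.

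Hepatocytes are the main source of PON3, so hepatocyte markers were read in the same ilea. The 7 markers summed to 2653 to 5275 CPM in control and 3566 to 5855 CPM in PFA ilea, most of it APOB and CPS1. TTR was at 0 in all 10 ilea and SERPINA1 had at most 1 count per ileum. ALB had 0 to 3 counts in control and 3 to 5 counts in PFA ilea, and P-95 held the most at 0.216 CPM. APOB and CPS1, at over 725 CPM in every ileum, are also made by intestinal epithelium. PON1, the neighbour that liver makes in quantity, had 0 to 1 counts in control and 1 to 5 counts in PFA ilea. PON2, which is made in many tissues, was at 32.6 to 49.5 CPM in control and 39.3 to 66.7 CPM in PFA ilea. The part of liver RNA in the PON3 counts was not tested.

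NCAN was the least abundant of the 6, and it passed the filter on low counts through its PFA libraries, where it was high, so that a difference was built into its selection. Control ilea held 7 (C-100), 5 (C-110), 9 (C-71), 9 (C-80) and 9 counts (C-92). PFA ilea held 12 (P-107), 15 (P-134), 16 (P-138), 16 (P-75) and 15 counts (P-95). The step between 9 and 12 counts kept the diets apart. NCAN was 1.95-fold higher with PFA (log2 0.96, standard error 0.25), and HAPLN4 beside it was at 58.7 to 108 CPM in control and 62.1 to 116 CPM in PFA ilea. HAPLN4 was also at 54.6 to 104 CPM in control livers, where NCAN was nearly absent. Which transcripts give the HAPLN4 counts was not tested. Markers of enteric neurons and glia summed to 10.9 to 29.3 CPM in control and 14.6 to 35.6 CPM in PFA ilea, and their part in the NCAN counts was not tested.

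**Figure D1:**
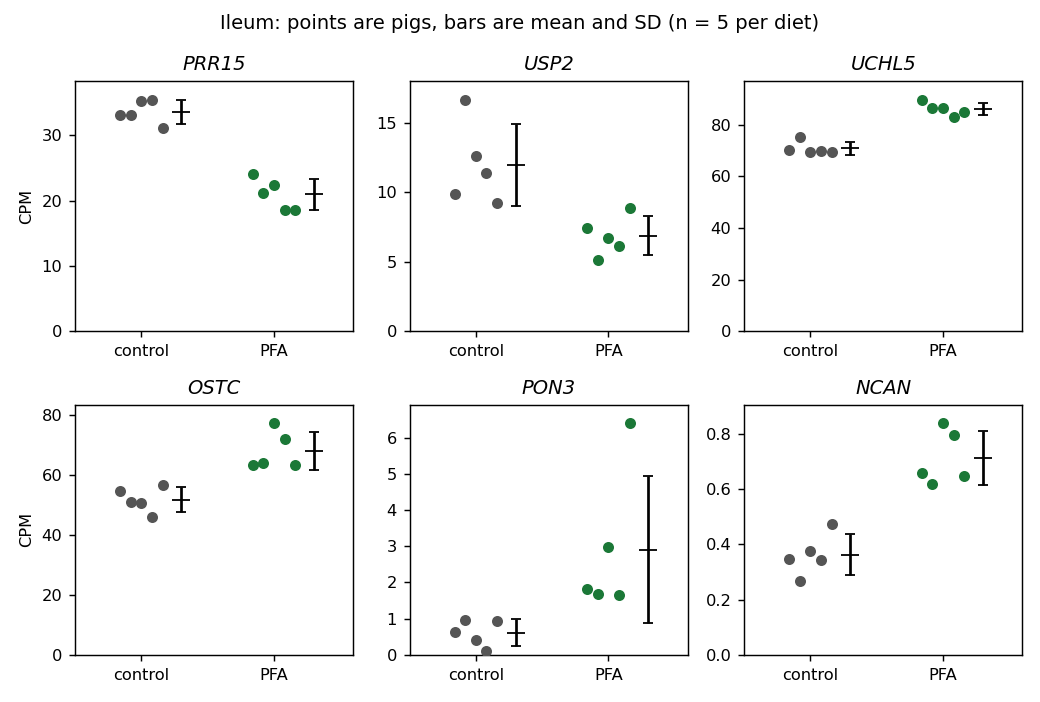
Level in CPM (linear axis from 0) of the 6 genes in the ileum of 5 control and 5 PFA pigs. Points are single pigs, and the black bars are the mean and SD per diet. PRR15 and USP2 are lower in all PFA pigs, the other 4 genes are higher, and P-95 stands alone for PON3 at 6.39 CPM.

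The 10 ileum libraries differed in how strongly counts depended on the GC content of the genes. The slope of log2 CPM on exon GC content, per 10 percentage points, ran from -0.372 in P-138 to 0.37 in P-134, both fed PFA. Its median was -0.13 in PFA and 0.14 in control ilea. As deviations from the diet mean, the correlation with the slope was 0.023 for PRR15, -0.51 for USP2 and -0.36 for UCHL5. It was -0.50 for OSTC, -0.39 for PON3 and -0.17 for NCAN. The part of the slope in the ileum differences was not tested further. With this slope as a term in the fit, added after the data were seen, the log2 fold changes were -0.68 for PRR15, -0.90 for USP2, 0.27 for UCHL5, 0.35 for OSTC, 2.11 for PON3 and 0.92 for NCAN.

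The same genes were then followed into the liver, where 4 of the 6 passed the filter. PRR15 had 1 to 11 counts and NCAN 0 to 1 counts per liver, too few for the filter. A total of 2 of 23 livers held a count of NCAN, both from control pigs. Without the filter, PRR15 differed from control by log2 0.06 with PFA (standard error 0.49, adjusted p = 1), 0.70 with OO (0.47, adjusted p = 0.45) and 1.13 with OO + PFA (0.47, adjusted p = 0.18, edgeR).

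Ileum and liver of the 5 control pigs were compared for the 5 genes that passed the filter. Of 14375 genes tested, 9978 were called (69.4%), with 35.8% higher and 33.7% lower in ileum. UCHL5 was higher in ileum (log2 0.59, standard error 0.13, adjusted p = 0.0018). OSTC was 2.95-fold lower in ileum (adjusted p = 1.65e-05) and USP2 2.78-fold lower (adjusted p = 0.0015, all edgeR). These differences rest on a TMM scaling of both tissues together, whereas CPM were scaled within each tissue, and their size depends on this. Scaled within tissue, UCHL5 averaged 70.8 CPM in control ilea and 21.5 CPM in the 6 control livers. In the same order OSTC averaged 51.7 and 67.3 CPM, and USP2 12.0 and 16.9 CPM. With 69.4% of all genes called, being called does not mark out these genes. PRR15 and PON3 passed the filter mainly through the tissue where they were high, so their differences are given as values with no test. PRR15 had 591 to 931 counts per control ileum and 1 to 6 counts per control liver, a fitted log2 difference of 6.89 that rests on the few liver counts. PON3 had 3 to 18 counts per control ileum against 158 to 386 CPM in control liver, a fitted log2 difference of -9.93.

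NCAN was counted 39 times over the 5 control ilea and 1 time over the livers of the same pigs. The ratio per counted read pair, without TMM scaling, was 53.0, with a 95% counting interval of 8.97 to 2147 (exact binomial). Over the 5 PFA pigs it was counted 74 times in ileum and 0 times in liver, at least 31.7-fold higher in ileum against a floor of 3 counts over the group. Intervals and floors cover counting error only.

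PFA and control livers were compared to ask whether the ileum differences were also present in the liver. For UCHL5, OSTC and USP2 the liver difference had the sign of the ileum difference, but none of the 4 genes passed the test. The diets overlapped for all 4, where 0.983% of genes did not overlap (0.188% higher and 0.795% lower with PFA). No gene of 13831 was called (0%) in this comparison by edgeR, where 1522 had an unadjusted p under 0.05, and DESeq2 called 18 of all genes.

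UCHL5 in liver ran from 15.6 over a median of 21.6 to 26.6 CPM in control and from 21.4 over 23.8 to 41.7 CPM in PFA pigs. P-95 was highest. The log2 fold change was 0.34 (95% interval 0.00093 to 0.69, adjusted p = 0.45, edgeR), against 0.28 in ileum. Without P-95 it was 0.19 (adjusted p = 0.74). Within title forms the difference was 0.088 for PigLiv (3 against 4 livers) and 0.72 for PL (3 against 2 livers).

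OSTC in liver ran from 40.3 over a median of 70.3 to 101 CPM in control and from 57.3 over 70.7 to 128 CPM in PFA pigs. The medians nearly met, and P-95 was again highest. OSTC differed by log2 0.27 (95% interval -0.18 to 0.72, adjusted p = 0.67, edgeR), against 0.39 in ileum. Without P-95 it was 0.091 (adjusted p = 0.91). Within title forms it was -0.020 for PigLiv and 0.87 for PL.

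USP2 in liver ran from 6.77 over a median of 15.5 to 28.9 CPM in control and from 8.52 over 11.06 to 15.8 CPM in PFA pigs. All PFA livers lay within the range of the control livers. USP2 differed by log2 -0.52 (95% interval -1.14 to 0.10, adjusted p = 0.53, edgeR), against -0.80 in ileum. Without the control pig C-80 it was -0.30 (adjusted p = 0.89), and without the control pig C-92 it was -0.68 (adjusted p = 0.39, edgeR). Within title forms it was 0.026 for PigLiv and -1.22 for PL, so PFA livers had the lower mean in 1 of the 2 forms.

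PON3 in liver ran from 158 over a median of 240.3 to 386 CPM in control and from 96.7 over 192 to 558 CPM in PFA pigs. PFA livers spanned both sides of the control range, with P-95 highest. PON3 differed by log2 -0.04 (95% interval -0.79 to 0.70, adjusted p = 0.98, edgeR), against 2.26 in ileum, and by -0.43 without P-95 (adjusted p = 0.74). The difference between the tissues was not tested. Within title forms it was -0.34 for PigLiv and 0.10 for PL.

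P-95 was thus the highest of all livers for UCHL5, OSTC and PON3. Its liver also had the lowest GC slope of all livers, -0.471, where PFA livers ranged to 0.0593 and control livers from -0.199 to 0.0861. Over the 23 livers, as deviations from the diet mean, the correlation with this slope was -0.80 for UCHL5, -0.64 for OSTC, -0.37 for PON3 and 0.32 for USP2. With the slope as a term, added after the data were seen, PFA and control livers differed by log2 0.27 for UCHL5 (adjusted p = 0.19), 0.19 for OSTC (adjusted p = 0.60), -0.16 for PON3 (adjusted p = 0.85) and -0.46 for USP2 (adjusted p = 0.41, edgeR). The part of this library property in the liver values was not tested further.

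**Figure D2:**
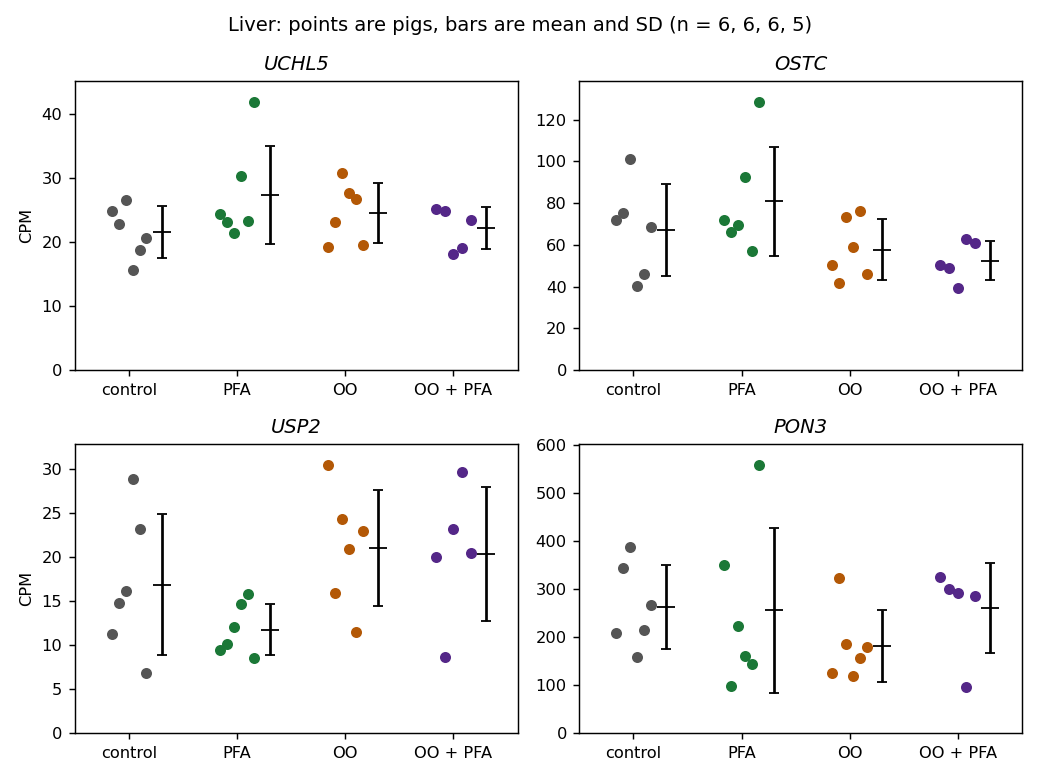
Level in CPM (linear axis from 0) in the liver of pigs on the control, PFA, OO and OO + PFA diets for the 4 genes that passed the filter. Points are single pigs, and bars are the mean and SD. The diets overlap for all 4 genes, and P-95 is the highest pig for UCHL5 (41.7 CPM), OSTC (128 CPM) and PON3 (558 CPM).

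The livers of the 10 pigs that also gave an ileum were fitted alone. Between PFA and control pigs UCHL5 differed by log2 0.27 (95% interval -0.17 to 0.70, adjusted p = 0.73), OSTC by 0.12 (-0.42 to 0.67, adjusted p = 0.92), USP2 by -0.49 (-1.19 to 0.21, adjusted p = 0.69) and PON3 by -0.0013 (-0.90 to 0.90, adjusted p = 1.0, all edgeR). None of 13288 genes was called (0%) by edgeR, 1079 had an unadjusted p under 0.05, and DESeq2 called 4. Without P-95 the values were 0.062 for UCHL5, -0.11 for OSTC, -0.39 for USP2 and -0.42 for PON3.

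For these 10 pigs it was asked whether a pig that was high in ileum was also high in liver for its diet. The Pearson correlation of the deviations from the diet mean was -0.04 for UCHL5 (permutation p = 0.88), 0.0050 for OSTC (p = 0.99), 0.17 for USP2 (p = 0.70) and 0.65 for PON3 (p = 0.041). Spearman's rho was -0.055 (permutation p = 0.91), 0.030 (p = 0.95), 0.091 (p = 0.82) and 0.65 (p = 0.055) in the same order. Over the 8 values the smallest adjusted p was 0.22, so no relation passed the correction (100000 permutations within diet, two-sided).

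The PON3 relation rested on few pigs. Without C-80 and P-95, the 2 pigs farthest from the median in ileum, r was 0.36. Among the 6 pigs whose livers carried the PigLiv title form it was -0.47, and the other form held 4 pigs. Without the 2 farthest pigs of each gene, r was -0.10 for UCHL5, 0.094 for OSTC and 0.44 for USP2, and among the 6 PigLiv pigs it was 0.024, -0.50 and 0.70.

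**Figure D3:**
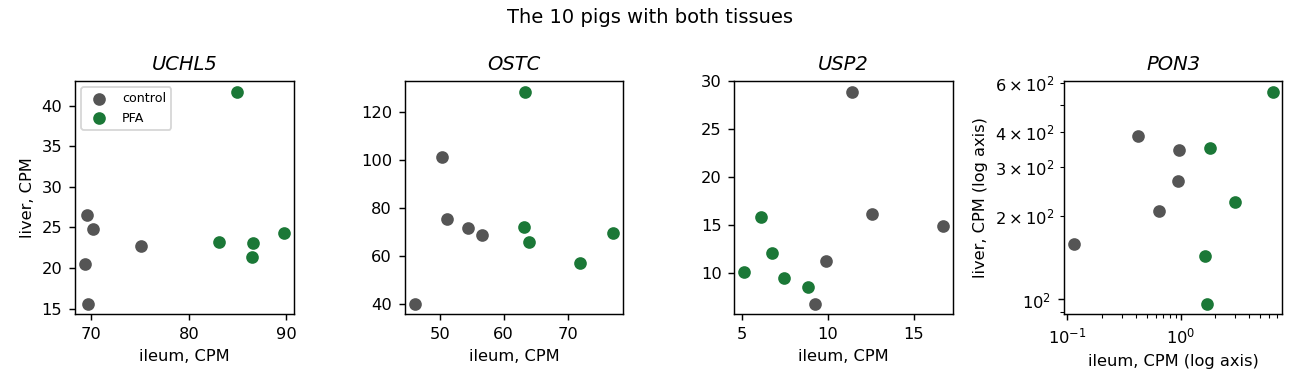
Liver level against ileum level in CPM for 4 genes in the 10 pigs with both tissues (5 control, 5 PFA), with log axes for PON3 only. UCHL5 separates the diets along the ileum axis and not along the liver axis, and P-95 is the upper right point for PON3.

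The oxidized oil diets were read next, as they hold pigs of other pens that did not choose the genes. OO livers held 19.3 to 30.8 CPM of UCHL5 (median 24.9), 41.8 to 76.4 of OSTC (median 54.7), 11.5 to 30.5 of USP2 (median 22.0) and 119 to 323 of PON3 (median 167). These ranges overlapped those of control livers for all 4 genes, where 2.24% of genes did not overlap (0.781% higher and 1.46% lower with OO). Against control the log2 fold changes were 0.19 for UCHL5 (standard error 0.17, adjusted p = 0.54), -0.22 for OSTC (0.22, adjusted p = 0.59), 0.32 for USP2 (0.30, adjusted p = 0.56) and -0.54 for PON3 (0.36, adjusted p = 0.40, all edgeR). None of the 4 was called, where 375 of 13831 genes were (2.71%).

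Within title forms, OO livers differed from control livers by log2 -0.056 (PigLiv) and 0.58 (PL) for UCHL5 and by -0.50 and 0.41 for OSTC. For USP2 the values were 1.14 and -0.72, and for PON3 -0.87 and -0.021. The sign thus differed between the forms for UCHL5, OSTC and USP2.

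In the 5 OO + PFA livers, OP-105, OP-126, OP-137, OP-79 and OP-98, UCHL5 was at 25.1, 24.9, 18.2, 19.1 and 23.5 CPM and OSTC at 50.6, 49.1, 39.4, 62.7 and 60.9 CPM. In the same order USP2 was at 20.0, 8.68, 23.2, 29.7 and 20.4 CPM, and PON3 at 325, 300.7, 292, 96.4 and 286 CPM. OP-126 was lowest for USP2 and OP-79 lowest for PON3. All 4 genes overlapped with control, where 9% of genes did not (7.13% higher and 1.87% lower with OO + PFA). Against control the log2 fold changes were 0.04 for UCHL5 (standard error 0.17, adjusted p = 0.92), -0.36 for OSTC (0.23, adjusted p = 0.38), 0.28 for USP2 (0.31, adjusted p = 0.67) and -0.01 for PON3 (0.38, adjusted p = 0.99, all edgeR). With the GC slope as a term the values were 0.34 for UCHL5 (adjusted p = 0.12), -0.0087 for OSTC (adjusted p = 0.99), 0.018 for USP2 (adjusted p = 0.99) and 0.25 for PON3 (adjusted p = 0.79). None of the 4 was called, where 702 genes were (5.08%). Within PigLiv livers, 4 of each diet, the differences were -0.034, -0.50, 0.63 and -0.36 in the same order, and the PL form held 1 OO + PFA liver.

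The effect of PFA on the oil background, OO + PFA against OO, shares neither diet with the ileum pigs. It was log2 -0.15 for UCHL5 (95% interval -0.51 to 0.22, adjusted p = 0.83), -0.14 for OSTC (-0.61 to 0.33, adjusted p = 0.88), -0.04 for USP2 (-0.69 to 0.61, adjusted p = 0.98) and 0.53 for PON3 (-0.25 to 1.31, adjusted p = 0.72, all edgeR). No gene was called (0%) by edgeR, 1176 had an unadjusted p under 0.05, and DESeq2 called 31. The 2 diets overlapped for all 4 genes, where 0.774% of genes did not (0.333% higher and 0.441% lower). Within PigLiv livers (4 against 3) the values were 0.022, 0.0046, -0.51 and 0.51 for UCHL5, OSTC, USP2 and PON3.

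The difference between the PFA effects with and without oil was tested as an interaction. It was log2 -0.49 for UCHL5 (standard error 0.24, adjusted p = 0.38), -0.40 for OSTC (0.32, adjusted p = 0.58), 0.47 for USP2 (0.43, adjusted p = 0.65) and 0.57 for PON3 (0.52, adjusted p = 0.65). Without P-95 it was -0.34, -0.23, 0.39 and 0.95 in the same order, and with the GC slope as a term -0.22, -0.085, 0.25 and 0.75, and none was called (edgeR). No gene was called (0%) by edgeR, 1881 had an unadjusted p under 0.05, and DESeq2 called 150. Over the 4 diets at once the adjusted p was 0.38 for UCHL5, 0.20 for OSTC, 0.20 for USP2 and 0.59 for PON3 (edgeR's quasi-likelihood F-test), where 506 genes were called (3.66%).

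**Figure D4:**
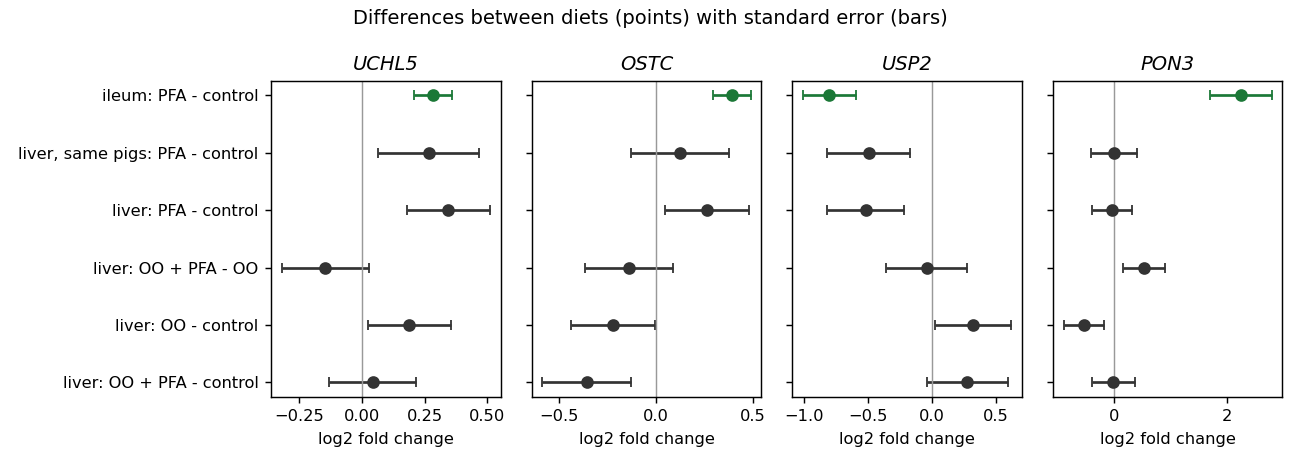
Log2 fold changes (points) with standard errors (bars) of UCHL5, OSTC, USP2 and PON3 in the ileum (green) and in 5 liver comparisons (dark), with a scale of its own for each gene. The ileum comparison chose the genes. The liver values of UCHL5, OSTC and USP2 for PFA against control have the sign of the ileum value, those for OO + PFA against OO lie near or across 0, and PON3 is near 0 for PFA against control (log2 -0.04).

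The partners and relatives of each gene were read in the same comparisons from lists written for this purpose. In the ileum 14 of the 16 measured genes of the oligosaccharyltransferase and the translocon were higher with PFA and 2 were lower, with a median log2 fold change of 0.18, against 0.016 over all genes. None was called (lowest adjusted p = 0.99). RPN1 was at 0.24 (standard error 0.085) and STT3A, the catalytic subunit, at 0.27 (0.094). In the liver 9 of 16 were higher with PFA (median 0.052), 4 of 16 with OO (median -0.095) and 3 of 16 with OO + PFA (median -0.20), and none was called.

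For UCHL5 the list held the proteasome cap, the INO80 complex and other ubiquitin hydrolases. In the ileum 9 of 19 were higher and 10 lower with PFA (median -0.019), with PSMD14, a deubiquitinase of the cap, at 0.25 (standard error 0.14). In the liver 8 of 19 were higher with PFA (median -0.059), and none was called in any diet comparison.

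Of the paraoxonases and lipoprotein genes, 4 of 12 were higher and 8 lower in PFA ilea (median -0.45, none called). APOA1, the main protein of high-density lipoprotein, was at -0.65 (standard error 0.30) and PON2 at 0.35 (0.16). In liver, LIPG, an endothelial lipase, rose with OO + PFA against control by log2 1.71 (adjusted p = 0.0027), and APOA4, an apolipoprotein, by 3.32 (adjusted p = 0.030, edgeR). These were 2 of the 13 tested, where 5.08% of all genes were called, and the median over the list was -0.014.

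Among lecticans, link proteins and hyaluronan genes, 5 of 14 were higher in PFA ilea (median -0.020, none called), with HAPLN3 at -1.32 (standard error 0.70). In liver CHPF, which extends chondroitin chains, rose with OO + PFA by log2 2.03 (adjusted p = 0.023, edgeR), 1 of 10 genes tested, where 5.08% of all genes were called.

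For PRR15 the list held Wnt targets and intestinal differentiation genes. In the ileum 8 of 13 were higher with PFA (median 0.087), none was called by edgeR, and NOTUM, which switches off Wnt proteins, was at -1.71 (standard error 0.35). In liver none of 11 was called in any diet comparison.

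The clock genes, listed for USP2, were split in the ileum, 9 of 18 higher and 9 lower with PFA (median -0.052, none called). CRY1 was at 0.31 (standard error 0.13) and NR1D1 at -0.97 (0.46). In liver 5 of 18 were higher with PFA and 13 lower (median -0.23, none called). With OO 5 were higher and 13 lower (median -0.24), and 1 of the 18 was called, lower with OO, where 2.71% of all genes were called.

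Over single pigs, USP2 in liver moved with clock genes. The deviations of log2 CPM from the diet mean were correlated over 23 livers, and r with USP2 was 0.75 for CRY2, 0.70 for NR1D1, 0.70 for DBP, 0.69 for TEF, 0.57 for PER2 and 0.56 for PER1. It was -0.65 for BMAL1, -0.70 for CRY1, -0.40 for NPAS2 and -0.35 for CLOCK. CRY2, NR1D1 and DBP ranked 4, 7 and 8 among 11731 genes with a symbol, and BMAL1 and CRY1 stood at 11698 and 11718. For comparison, 5.05% of all genes had an r above 0.5 or below -0.5 with USP2. These points share library and depth, and the values are a description.

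The sign was the same within both title forms for the 8 genes read there, with smaller values for the PER genes. PER1 was at 0.26 in PigLiv and 0.67 in PL livers, and PER2 at 0.20 and 0.33. For PigLiv (14 livers) r was 0.55 for CRY2, 0.65 for NR1D1, 0.60 for DBP, -0.55 for BMAL1 and -0.68 for CRY1. For PL (9 livers) it was 0.93, 0.81, 0.73, -0.86 and -0.83. DBP and TEF are transcription factors at the output of the clock, NR1D1, the PER genes and the CRY genes are its repressors, and BMAL1 is the activator that binds the E-box.

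Over the 10 ilea r with USP2 was 0.089 for DBP, -0.41 for NR1D1, -0.15 for CRY2, -0.83 for CIART, 0.50 for CRY1 and 0.63 for HLF. With 10 pigs such values are imprecise, and 33.3% of all genes had an r above 0.5 or below -0.5 with USP2. The difference between the tissues was not tested.

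**Figure D5:**
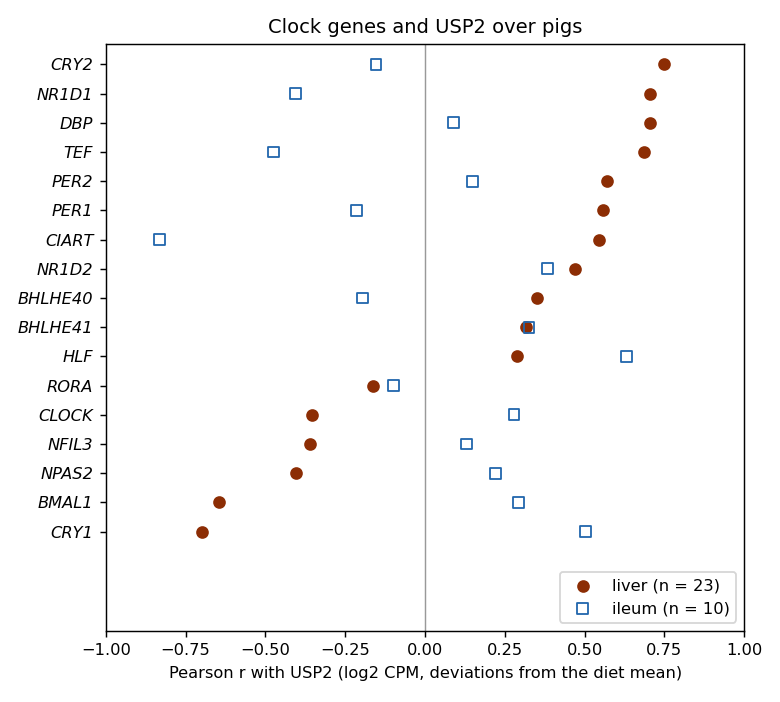
Pearson r between USP2 and 17 clock genes over pigs (log2 CPM, deviations from the diet mean), for 23 livers (filled circles) and 10 ilea (open squares), sorted by the liver value. In liver CRY2, NR1D1, DBP and TEF lie at 0.69 to 0.75 and CRY1 at -0.70, while ileum values follow another order.

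The other genes had their own companions in liver. OSTC went with several of the genes listed for the oligosaccharyltransferase. Over 23 livers r was 0.88 for RPN1, 0.88 for DAD1, 0.83 for MAGT1, 0.82 for STT3B and 0.82 for STT3A. Of the 16 listed genes, 14 had a positive r (median 0.58). The median over all genes was 0.021. KRTCAP2 (-0.53) and SSR4 (-0.51) went the other way. Within title forms RPN1 was at 0.85 (PigLiv) and 0.84 (PL), and DAD1 at 0.91 and 0.88.

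For UCHL5 in liver, 9 of the 19 listed genes had a positive and 10 a negative r (median -0.12). Among proteasome cap genes r was 0.88 for PSMD14, 0.84 for PSMD1, 0.80 for USP14 and 0.095 for PSMD4. Among INO80 genes it ran from -0.87 for MCRS1 and -0.75 for NFRKB to 0.23 for INO80, 0.31 for ACTR8 and 0.64 for RUVBL1. Within title forms PSMD14 was at 0.75 and 0.96 and MCRS1 at -0.87 and -0.90. For UCHL5, however, 40.4% of all genes had an r above 0.5 or below -0.5, and for OSTC 31.2%, and both followed the GC slope of the library. What part that slope has in these values was not tested.

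The genes most like each member over the 23 livers were GNAI3 and ZMPSTE24 for UCHL5 (r of 0.93 each), SCFD1, MORF4L1 and PDIA5 for OSTC (0.92, 0.90 and 0.90), PFDN1, LRRC4C and IFT46 for PON3 (0.85, 0.82 and 0.82) and C19orf12, RALGPS1 and ZCCHC14 for USP2 (0.84, 0.79 and 0.77). For PON3, 9.86% of all genes had an r above 0.5 or below -0.5. SCFD1 works in transport out of the endoplasmic reticulum and PDIA5 folds proteins in it.

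Over the 10 ilea the most alike were IL2RB, PLXNC1 and ANKRD40CL for PRR15 (r of 0.91, 0.90 and 0.88), TRIM62 and CHIA for UCHL5 (0.94 and 0.93) and CHMP3, NDUFA5 and NDUFS1 for OSTC (0.94, 0.92 and 0.92). They were STAM, KCNAB1 and DIMT1 for USP2 (0.96, 0.93 and 0.92), GABRB2, PRSS23 and EFEMP1 for PON3 (0.96, 0.92 and 0.91) and ATP5PF, ATP5PO and COX7C for NCAN (0.95, 0.92 and 0.92). The NCAN and OSTC companions include genes of the mitochondrial respiratory chain and ATP synthase. NCAN rests on 5 to 16 counts per ileum. None of these genes was among the most alike of the same member in liver.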

How the data were processed

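RNA was read in the ileum of 10 and the liver of 24 piglets. The authors aligned read pairs of stranded poly(A) libraries with STAR 2.6.1d to Sscrofa11.1 and deposited whole-number counts per Ensembl gene made with HTSeq, without normalization. Which annotation release and strand setting were used is not given in the sources used here. The 6 genes and the lists were chosen with earlier results of these data known. Counts were scaled by TMM, filtered with filterByExpr and fitted with edgeR 4.0.16 (quasi-likelihood test, two-sided, Benjamini-Hochberg over all genes kept) in R 4.3.3 with limma 3.58.1. A gene was called where its adjusted p was no higher than 0.05. The 4 liver diets shared 1 fit of 23 libraries. Log2 CPM for correlations used a prior count of 2. Correlations between tissues were tested by 100000 permutations of pigs within diet, two-sided. Each pig is a separate animal, but each diet was 1 pen, so p-values measure the spread between pigs of a pen. Depth was 18738055 to 42446834 counted read pairs per library.

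All members were named in each comparison, with the 3 genes of highest positive r per member and tissue, and from each list up to 4 called genes with the smallest p, or up to 2 genes by value where none was called. A few genes that this rule selects are not reported here. Symbols were found for 14857 of 25880 genes. Positions, windows and exon GC content came from RefSeq on Sscrofa11.1, and 92.4% and 92.5% of genes with a symbol had a GC value in ileum and liver. Ileum and liver libraries with the same pig number come from the same animal, and the correlation of their deviations over genes was -0.0388 to 0.333 in the control pigs. Alternatives were DESeq2 1.42.0, RLE scaling, other filters, all 24 livers, a term for the title form, the 2 diets alone, a replicate block for the pig, and leaving out each pig. A term for the GC slope was added after the data were seen. Fits of PFA against control, each tissue alone, were tried on simulated counts. The simulated liver fit held control and PFA libraries only, unlike the shared fit of 4 diets behind the liver tests. Comparisons with the oil diets were not simulated. Of simulated 1.5-fold changes, 5 of 62 were called in ileum and 10 of 59 in liver. Of 4-fold changes, 62 of 67 and 68 of 69 were called. Of 2-fold changes, 34 of 70 were called in ileum and 46 of 67 in liver. A missing call thus says little about differences of 1.5-fold or less, and many 2-fold differences were missed as well. Python 3.11.15, numpy, pandas and scipy handled the tables. Quantitative PCR was not analysed here.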

Additional observations from a re-analysis of the deposited data

Results flagged for a closer look

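Of 28 groups of 5 or 6 pigs read for the 6 genes, 4 held a pig that stood apart from the others of its diet by Dixon's 95% criterion, where chance flags about 5% of groups. PON3 was at 6.39 CPM in the ileum of P-95, against 2.98 CPM in the next PFA pig. PON3 was at 323 CPM in the liver of OO-130, against 185 CPM in the next OO pig. PON3 was at 96.4 CPM in the liver of OP-79, against 286 CPM in the next OO + PFA pig. UCHL5 was at 75.1 CPM in the ileum of C-110, against 70.1 CPM in the next control pig. No interaction between oil and PFA was called for the 4 genes tested.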

How the results depend on the processing

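Of 896 alternative values, 867 kept their direction and their side of the threshold, or for the ileum stayed within the spread of pigs, and 29 changed sign. No member was called in any liver comparison under any alternative. All ileum differences kept their sign, and leaving out pigs moved PON3 between 1.72 and 2.48 and USP2 between -0.92 and -0.65. Of the sign changes, those from leaving out 1 pig were in values near 0: PON3 for PFA against control (-0.43 to 0.13) and for OO + PFA against control (-0.12 to 0.20), UCHL5 for OO + PFA against control (-0.034 to 0.11), USP2 for OO + PFA against OO (-0.22 to 0.15), and in the ileum pigs PON3 (-0.42 to 0.23) and OSTC (-0.11 to 0.28). With all 24 livers UCHL5 was at -0.036 for OO + PFA against control and USP2 at 0.13 for OO + PFA against OO. With the GC slope as a term, PON3 was at 0.25 for OO + PFA against control, and UCHL5 at 0.042 and OSTC at 0.10 for OO + PFA against OO. In the ileum pigs PON3 was at 0.022 with RLE scaling and at 0.022 with DESeq2, and the OSTC correlation between tissues was -0.0083 with RLE scaling. The cause was not tested.

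With a replicate block for the pig, ileum and liver differed by 6.89 for PRR15, 0.60 for UCHL5, -9.96 for PON3, -1.51 for OSTC and -1.36 for USP2. No call of UCHL5, OSTC or USP2 was lost, and PRR15 and PON3 are again values with no test. In the 5 PFA pigs the values were 6.49, 0.57, -7.67, -1.33 and -1.82. NCAN enters that fit through the ilea where it is high, and its call there is not read as a result. Depth limits NCAN in both tissues, PON3 in ileum and PRR15 in liver.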

Other observations

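The 6 genes did not form 1 pattern over single pigs. As deviations from the diet mean of log2 CPM over the 10 ilea, r was 0.69 for NCAN and OSTC, 0.53 for UCHL5 and USP2 and 0.49 for PRR15 and UCHL5, while it was -0.65 for UCHL5 and NCAN and -0.52 for NCAN and USP2. PRR15 and USP2, both lower with PFA, had an r of 0.056. Over the 23 livers UCHL5 and OSTC had an r of 0.81 and UCHL5 and PON3 of 0.50, and USP2 went against all 3 (-0.44, -0.34 and -0.42 for UCHL5, OSTC and PON3). These are descriptions over libraries that share their depth and GC slope.

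Among known substrates and relatives of USP2, 4 of 9 were higher and 5 lower in PFA ilea (median -0.0024, none called), with USP8 at 0.094 and CDKN1A at -0.15 on the log2 scale. In liver 6 of 9 were higher with PFA (median 0.024, none called), with CCND1, cyclin D1, at 0.41 (standard error 0.20).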
